A study of Bos taurus with 12 samples.

Results

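The 10 genes described here encode proteins of the egg: the oocyte growth factors BMP15 and GDF9, the zona pellucida glycoproteins ZP2, ZP3 and ZP4, the kinase MOS, the importin KPNA7, the maternal-effect proteins NLRP5 and OOEP, and the ubiquitin hydrolase UCHL1. They were taken by symbol: every probe set whose platform annotation gave exactly 1 of these symbols was a member, which made 11 of the 24016 probe sets tested and 10 of the 9155 genes so named. BMP15 had 2 probe sets, each other gene had 1, and a gene was represented by its probe set of highest mean log2 signal over the 12 arrays. The symbols and not the measured values defined the set, although the genes were picked with earlier results of these arrays known.

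All embryos were produced in vitro from Japanese Black cattle, with oocytes matured and fertilized in culture using frozen and thawed semen of a Japanese Black bull and zygotes grown in CR1aa medium. Oocytes came either from ovaries of adult cows, collected at an abattoir, or from ovaries of prepubertal heifers of 9 to 12 months, removed with a spay device at farms. Cumulus cells were stripped with hyaluronidase after fertilization. A pool held either 50 embryos of 8 to 16 cells (day 3, between 70 and 72 h from insemination) or 10 expanded blastocysts of day 7 that had not hatched, and only embryos of normal morphology were used. The stages by origins gave 4 groups of 3 arrays (n = 3 throughout), named below adult or prepubertal 8-16-cell embryos and adult or prepubertal blastocysts. RNA of each pool was amplified as a whole-transcript cDNA and hybridized to an Affymetrix bovine array. The titles call the replicates biological without stating if animals, sires or culture days were common to several pools, and the p-values therefore measure no more than the variation among the 12 pools. Stage, number of embryos in a pool and the separate runs of numbers that the titles give to each stage cannot be told apart. Nor can the age of the donors and the way their ovaries were collected, so a difference of origin covers both.

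During its growth the oocyte stores large amounts of messenger RNA, and the early embryo lives on this store until its own genome takes over, which in cattle happens around the stage of 8 to 16 cells. BMP15 and GDF9 are secreted by the oocyte and signal to the surrounding cumulus and granulosa cells, the zona proteins build the coat that sperm must bind and cross, and MOS drives the kinase cascade that holds the mature egg in metaphase. Maternal-effect genes such as NLRP5 and OOEP are transcribed in the oocyte, and their products are needed by the embryo after fertilization.

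Signals are MAS5 intensities, scaled by array, and each array's background is the highest of its 27 Bacillus subtilis control probe sets. That background lay between 122 and 424 on 11 arrays and at 1664 on prepubertal 8-16-cell replicate 3, which stood apart: 5.23% of its probe sets exceeded background, against 17.9% to 35.4% on the others, and 49.3% of its signal lay in its 100 brightest probe sets, against 23.3% to 32.7%. Results that rest on it are also given without it. Of 16 markers of blastocyst lineages, 12 were above background on all 3 arrays of each blastocyst group, against 3 and 1 in adult and prepubertal 8-16-cell embryos. The stage labels and these markers pointed the same way, but the list was chosen with earlier results of these arrays known. No sequence was at hand for the probe sets or the proteins, so none is shown.

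Most of the set was measured above background in 8-16-cell embryos and little of it in blastocysts. BMP15, GDF9, KPNA7, MOS, ZP2 and ZP4, 6 of the 10, exceeded background on all 3 adult 8-16-cell arrays, while 12.6% of all probe sets did so. In prepubertal 8-16-cell embryos 3 of 10 did (BMP15, KPNA7 and ZP2), against 3.69% of all probe sets, and GDF9, MOS and ZP4 did on replicates 1 and 2 only. No gene of the set did so in adult blastocysts, where 14.1% of probe sets did, and in prepubertal blastocysts OOEP alone did, where 15.9% did.

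**Figure D1:**
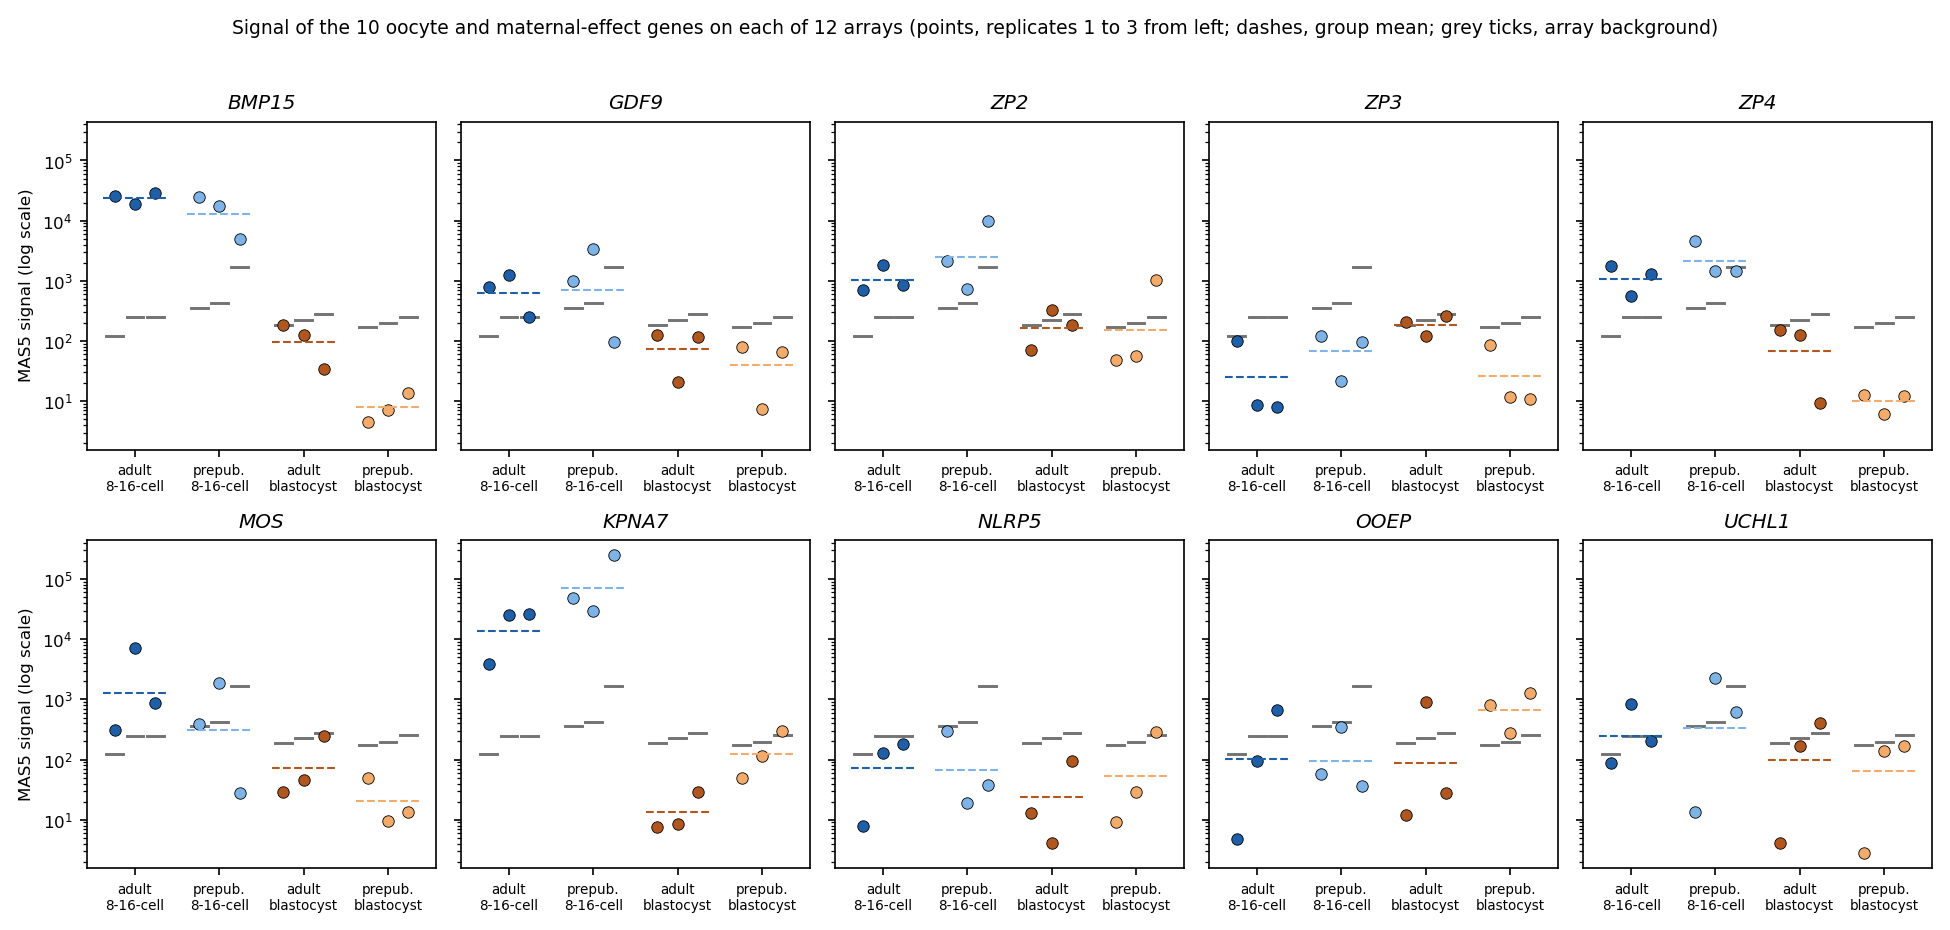
MAS5 signal (log axis) of each of the 10 genes on the 12 arrays, with the 3 replicates of a group from left to right, the group mean of log2(signal + 16) as a dashed line and each array's background as a grey tick. BMP15, KPNA7 and ZP4 have every 8-16-cell point above every blastocyst point, whereas ZP3 and NLRP5 lie mostly under the background ticks.

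Over the mean of both oocyte origins, 6 of the 10 genes fell from the 8-16-cell stage to the blastocyst at an adjusted p under 0.05 (limma) and none rose. In that comparison 6.40% of all probe sets passed in either direction, 2.51% of them downward and 3.90% upward. The median of the fitted differences of the 10 genes, several of them against signals at background, was -3.24 on the log2 scale and that of all probe sets -0.17. Within adult embryos 2 of 10 fell (BMP15 and KPNA7), where 2.13% of probe sets passed, 0.870% downward and 1.26% upward. Within prepubertal embryos 3 of 10 fell (BMP15, KPNA7 and ZP4), where 2.34% passed, 0.912% downward and 1.43% upward. Without prepubertal 8-16-cell replicate 3 the counts were 2, 3 and, over both origins, 5 of 10. The comparison over both origins uses the same arrays as the other 2 and is no further evidence. A lower signal in pools of whole embryos cannot tell fewer cells carrying a transcript from less of it in each cell, and arrays scaled to a common mean give shares of the RNA, not amounts per embryo.

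BMP15, an oocyte growth factor of the transforming growth factor beta family, had by its brighter probe set the smallest spread between replicates of the 10 genes. Its brighter probe set read 25584, 19104 and 28328.5 in adult and 24984, 17457 and 4961 in prepubertal 8-16-cell embryos. In blastocysts it read 187, 125 and 34.2 in the adult group and 4.53, 7.05 and 13.6 in the prepubertal group. The stages did not overlap in either origin, and all 6 blastocyst arrays were at background. Of all probe sets, 17.2% did not overlap between the stages in adult embryos (7.62% lower in blastocysts), 16.6% in prepubertal embryos (9.24% lower and 7.35% higher) and 3.44% over all 6 arrays of each stage (1.27% lower and 2.17% higher). Of the 10 genes, 6 lay lower without overlap in adult and 4 in prepubertal embryos, and 3 over all arrays (BMP15, KPNA7 and ZP4). On the log2 scale the mean was 14.55 ± 0.29 (SD, n = 3) in adult and 13.66 ± 1.22 in prepubertal 8-16-cell embryos, a difference that did not pass (adjusted p = 0.879), and then 6.82 ± 1.05 and 4.59 ± 0.27 in the respective blastocysts. Because blastocyst signals were at background, the fold is a lower bound, with each blastocyst signal raised to its array's background: BMP15 was at least 76.1-fold lower over both origins (log2 difference -8.40, SE 1.0, adjusted p = 1.61e-11, limma).

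The dimmer BMP15 probe set gave the same direction. It read 3528, 7842 and 7658 in adult and 9902, 3060.0 and 1761 in prepubertal 8-16-cell embryos, and no more than 120.3 in adult and 181 in prepubertal blastocysts. Its drop was at least 20.5-fold over both origins (log2 difference -6.09, SE 1.04, adjusted p = 3.45e-06), at least 24.5-fold in adult embryos and at least 17.2-fold in prepubertal ones. The probe sets of BMP15 thus differed in the size of the bound and not in the call.

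GDF9, the partner growth factor that acts on the same follicle cells, was dimmer and more variable. In adult 8-16-cell embryos it read 780.1, 1249 and 252, the last of these just above that array's background of 251. In prepubertal 8-16-cell embryos it read 987, 3320.3 and 97.6, and the last value, on replicate 3, was below background. In blastocysts it read 126, 20.9 and 118 (adult) and 78.5, 7.29 and 64.2 (prepubertal), all at background. The stages did not overlap within either origin, but prepubertal 8-16-cell replicate 3 lay below the brightest adult blastocyst arrays. GDF9 fell over both origins (log2 difference -3.28, SE 1.03, 95% confidence interval -5.30 to -1.25, adjusted p = 0.031, limma). With blastocyst signals raised to background the drop was 2.95-fold. This is no lower bound, since prepubertal 8-16-cell replicate 3 entered with its own value, below its background. GDF9 did not pass within adult (adjusted p = 0.451) or prepubertal embryos (adjusted p = 0.184). Leaving out any of 6 of the 12 arrays ended the call, with an adjusted p of up to 0.122, and without prepubertal 8-16-cell replicate 3 it was firmer (-3.94, adjusted p = 0.00709).

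Of 14 other measured genes of growth factor signalling (receptors, SMAD transducers, the processing protease FURIN, the inhibitor FST and the ID target genes), 2 fell, none rose, and their median difference was -0.65. BMPR2, the type II receptor shared by BMP15 and GDF9, ranged from 3372 to 6492 in adult and 6310 to 9405 in prepubertal 8-16-cell embryos. In blastocysts it ranged from 182 to 1655 and from 233 to 536, so the stages did not overlap. Its log2 difference over both origins was -3.73 (SE 0.95, adjusted p = 0.00407). ID2, a transcriptional inhibitor induced by bone morphogenetic proteins, fell by 3.40 on the log2 scale (SE 1.05, adjusted p = 0.027), and leaving out any of 5 arrays ended that call, with an adjusted p of up to 0.159. The type I receptors did not pass: BMPR1B, through which BMP15 signals, differed by -1.40 (adjusted p = 0.527), BMPR1A by -0.79 (adjusted p = 0.766) and TGFBR1, the type I receptor of GDF9, by -0.41 (adjusted p = 0.898). SMAD3, a transducer of GDF9 signals, differed by -2.51 (adjusted p = 0.171) and the inhibitor FST, follistatin, by -1.79 (adjusted p = 0.314).

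Since receivers of these factors are follicle cells, markers of cumulus and granulosa cells were read beside them. Of 25 measured, 3 were above background on all 3 adult 8-16-cell arrays, 1 on the prepubertal ones, 4 in adult and 5 in prepubertal blastocysts. Their summed signal ranged from 13635 to 32030, 19622 to 22580, 16163 to 35793 and 12804 to 20418 in those groups, so the stages overlapped. In the same order of groups, 14, 19, 14 and 13 of the 25 were above background on no array. FSHR, LHCGR, AMH, INHA and CYP11A1, picked from this list for their role, were at background on all 12 arrays. PTGS2, which expanding cumulus cells and the blastocyst's trophectoderm both express, was at background on all 8-16-cell arrays and rose at least 22.0-fold (adjusted p = 2.37e-09). STAR, a carrier of cholesterol into mitochondria, fell by 3.57 on the log2 scale (adjusted p = 0.0168). This marker was above background on all 6 arrays of the 8-16-cell stage and on 2 blastocyst arrays. Whether the pools held follicle cells was not tested. Leaving out any of 3 arrays ended the STAR call, prepubertal 8-16-cell replicate 3 among them (-3.09, adjusted p = 0.0573). Of 9 measured sperm genes none was above background on all 3 arrays of an 8-16-cell group, and ODF2, an outer dense fibre gene that is also part of centrosomes, rose by 3.56 (adjusted p = 0.0178), a call that ended when any of 4 arrays was left out (adjusted p up to 0.194).

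Among the zona genes, ZP4 fell, ZP2 fell with less margin, and ZP3 was not measured above background in most samples. ZP4, a zona glycoprotein that cattle have and mice lack, read 1744, 565 and 1284 in adult and 4559, 1473 and 1461 in prepubertal 8-16-cell embryos. In blastocysts it read 151, 128 and 9.21 (adult) and 12.8, 6.01 and 12.3 (prepubertal), all at background. Every 8-16-cell array was above every blastocyst array, although prepubertal 8-16-cell replicate 3 was itself under its high background. ZP4 fell in prepubertal embryos (log2 difference -6.37, SE 1.46, adjusted p = 0.00291, limma), where 2 of 3 arrays of the brighter group exceeded background. It also fell over both origins (-5.03, SE 1.03, adjusted p = 0.000162, limma). With blastocyst signals raised to background the drops were 9.79-fold and 6.64-fold. These are no lower bounds, since prepubertal 8-16-cell replicate 3 entered with its own value, under its background. Adult embryos did not pass on their own (-3.70, 95% confidence interval -6.57 to -0.83, adjusted p = 0.213). That ZP4 passed in 1 origin does not separate them: its stage difference was lower in prepubertal than in adult embryos by 2.67 on the log2 scale, with a 95% confidence interval of -6.73 to 1.39 (adjusted p = 0.951).

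ZP2, which sperm bind in the zona, read 691, 1804 and 853 in adult and 2105, 743 and 10017 in prepubertal 8-16-cell embryos. Blastocysts read 69.6, 325 and 184 in the adult group and 48.1, 56.2 and 1034 in the prepubertal group. The last of these, replicate 3, exceeded background and reached the 8-16-cell range, so the stages overlapped in prepubertal and not in adult embryos. Adult blastocyst replicate 2, at 325, also exceeded its array's background of 224. ZP2 fell over both origins (log2 difference -3.21, SE 1.05, 95% confidence interval -5.28 to -1.15, adjusted p = 0.0407) and passed in neither origin alone (adjusted p = 0.569 in adult and 0.161 in prepubertal embryos). This was the least firm of the 6 calls: leaving out any of 9 of the 12 arrays ended it (adjusted p up to 0.146), prepubertal 8-16-cell replicate 3 included (-2.72, adjusted p = 0.118), and so did a pseudocount of 1 (-3.39, adjusted p = 0.053).

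ZP3, the zona protein that pairs with ZP2 in the filaments of the coat, read 101, 8.48 and 7.92 in adult and 122, 21.5 and 97.4 in prepubertal 8-16-cell embryos, all at background. It read 204, 119 and 261 in adult blastocysts, of which the first exceeded background, and 84.3, 11.5 and 10.8 in prepubertal ones. Adult blastocysts lay above adult 8-16-cell embryos without overlap, as did 9.55% of all probe sets, but the difference did not pass (2.30, SE 1.21, adjusted p = 0.48), and over both origins it was 0.65 (95% confidence interval -1.03 to 2.34, adjusted p = 0.797). Of the other genes of the oocyte surface, CD9, a tetraspanin of the egg membrane that many cell types express, rose by 4.01 (SE 0.69, adjusted p = 4.42e-06). CD9 ranged from 809 to 4267 in adult 8-16-cell embryos and from 32834 to 65834 in adult blastocysts. In prepubertal 8-16-cell embryos replicate 3 read 103815 and the others 917 and 1015, and without that array the difference was 5.13 (adjusted p = 2.13e-11). OVGP1, a glycoprotein of the oviduct that binds the zona, differed by 0.44 (adjusted p = 0.891).

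MOS, the kinase that switches on the MAPK cascade in meiosis, varied widely between replicates. It read 310.4, 7296 and 868 in adult and 397, 1892 and 27.8 in prepubertal 8-16-cell embryos, with replicate 3 of the latter below background. Blastocysts read 28.9, 45.5 and 244 in the adult and 49.6, 9.35 and 13.4 in the prepubertal group, all at background. The adult stages did not overlap, and the prepubertal stages did through replicate 3. MOS fell over both origins (log2 difference -3.50, SE 1.03, 95% confidence interval -5.52 to -1.48, adjusted p = 0.0175, limma). With blastocyst signals raised to background the drop was 2.79-fold. This is no lower bound, since prepubertal 8-16-cell replicate 3 entered with its own value, below its background. MOS passed in neither adult (adjusted p = 0.176) nor prepubertal embryos (adjusted p = 0.289). Leaving out any of 4 arrays ended the call (adjusted p up to 0.0971), and without prepubertal 8-16-cell replicate 3 the difference was -4.22 (adjusted p = 0.00361).

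Of 16 other measured genes of the MOS cascade and of meiotic arrest and exit, 2 fell and none rose, with a median difference of -0.72. AURKA, the spindle kinase aurora A, ranged from 111308 to 218578 in adult and 171736 to 531648 in prepubertal 8-16-cell embryos. In blastocysts it ranged from 876 to 3679 and from 6037 to 24597, above background on all 6 arrays and well apart from the earlier stage (log2 difference -5.27, SE 0.50, adjusted p = 6.57e-17). CCNB1, cyclin B1, which drives entry into M phase with CDK1, also fell without overlap (-2.92, SE 0.72, adjusted p = 0.00294). The kinases next to MOS in the cascade did not pass: MAP2K1 differed by 0.09 (adjusted p = 0.982), MAP2K2 by 2.90 (adjusted p = 0.0848), MAPK3 by -0.74 (adjusted p = 0.733) and RPS6KA1 by 1.94 (adjusted p = 0.332). CDK1, the kinase that pairs with CCNB1, differed by -1.93 (adjusted p = 0.282).

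KPNA7, the importin alpha of oocytes and cleaving embryos, fell in each origin and over both. It read 3868, 25749 and 25981 in adult and 49094, 29232 and 249600 in prepubertal 8-16-cell embryos. In blastocysts it read 7.70, 8.33 and 28.9 in the adult group, all at background, and 48.9, 116 and 298 in the prepubertal group, where the last exceeded background. No blastocyst array came near any 8-16-cell array. In adult embryos KPNA7 was at least 56.4-fold lower in blastocysts (adjusted p = 2.13e-06), in prepubertal embryos the log2 difference was -9.0 (SE 1.38, adjusted p = 1.13e-06), and over both origins -8.93 (SE 0.97, adjusted p = 1.9e-13). Since 5 of the 6 blastocyst arrays were at background, the size of these differences is not measured: with all signals raised to the highest background of any array the value over both origins was -4.22 (adjusted p = 0.00352). Without prepubertal 8-16-cell replicate 3, whose value was the highest, the prepubertal difference was -8.09 (adjusted p = 0.00012).

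Other members of the nuclear import machinery did not follow KPNA7. Of 15 other measured importins and import factors none passed in either direction, with a median difference of 0.32. KPNA2, an importin alpha that is abundant in many dividing cells, was above background on all 6 arrays of each stage and differed by -0.99 (adjusted p = 0.451). KPNA4 differed by -1.87 (adjusted p = 0.18), KPNA3 by 2.15 (adjusted p = 0.265), KPNA1 by 1.42 (adjusted p = 0.567) and the GTPase RAN, which powers import, by 0.89 (adjusted p = 0.394).

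NLRP5 and OOEP, 2 components of the subcortical maternal complex beneath the egg membrane, showed no stage difference that passed. NLRP5 read 7.85, 131 and 181 in adult and 299, 19.1 and 37.6 in prepubertal 8-16-cell embryos, all at background. Its blastocyst values were 12.9, 4.08 and 96.2 (adult) and 9.19, 28.7 and 283 (prepubertal), and only the last exceeded background. With 1 of 12 arrays above background the probe set gave no level to compare, and the difference of -0.70 had a 95% confidence interval of -2.36 to 0.96 (adjusted p = 0.769).

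OOEP was the only gene of the set above background on all 3 prepubertal blastocyst arrays, where it read 799, 272 and 1296. Adult blastocysts read 12.0, 898 and 27.8, of which only the middle value exceeded background. Adult 8-16-cell embryos read 4.80, 93.9 and 674, and prepubertal ones 58.6, 342 and 35.9, with only the value of 674 above background. The replicates of a group spread over more than those of 89.7% of probe sets, with a residual SD of 2.08 on the log2 scale, and the ranges of all 4 groups overlapped. The stage difference was 1.22 over both origins (95% confidence interval -0.80 to 3.23, adjusted p = 0.625) and 2.60 in prepubertal embryos (adjusted p = 0.426). CFL1 and YWHAE, the other measured genes linked to the complex, which are active in most cells, differed by 1.79 (adjusted p = 0.255) and 1.05 (adjusted p = 0.51).

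UCHL1, a deubiquitinating enzyme abundant in oocytes and neurons, was above background on 3 of 12 arrays and had the widest spread of the set, with a residual SD of 2.31. It read 86.5, 841 and 200.1 in adult and 13.4, 2299 and 620.5 in prepubertal 8-16-cell embryos. Blastocysts read 4.10, 167 and 409.7 (adult) and 2.75, 139.9 and 166 (prepubertal), so all groups overlapped. Its difference was -1.66 (95% confidence interval -3.68 to 0.37, adjusted p = 0.447). None of 3 related hydrolases passed: UCHL3 differed by 1.25 (adjusted p = 0.618), UCHL5 by 2.43 (adjusted p = 0.186) and BAP1, a tumour suppressor, by 1.09 (adjusted p = 0.6).

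**Figure D2:**
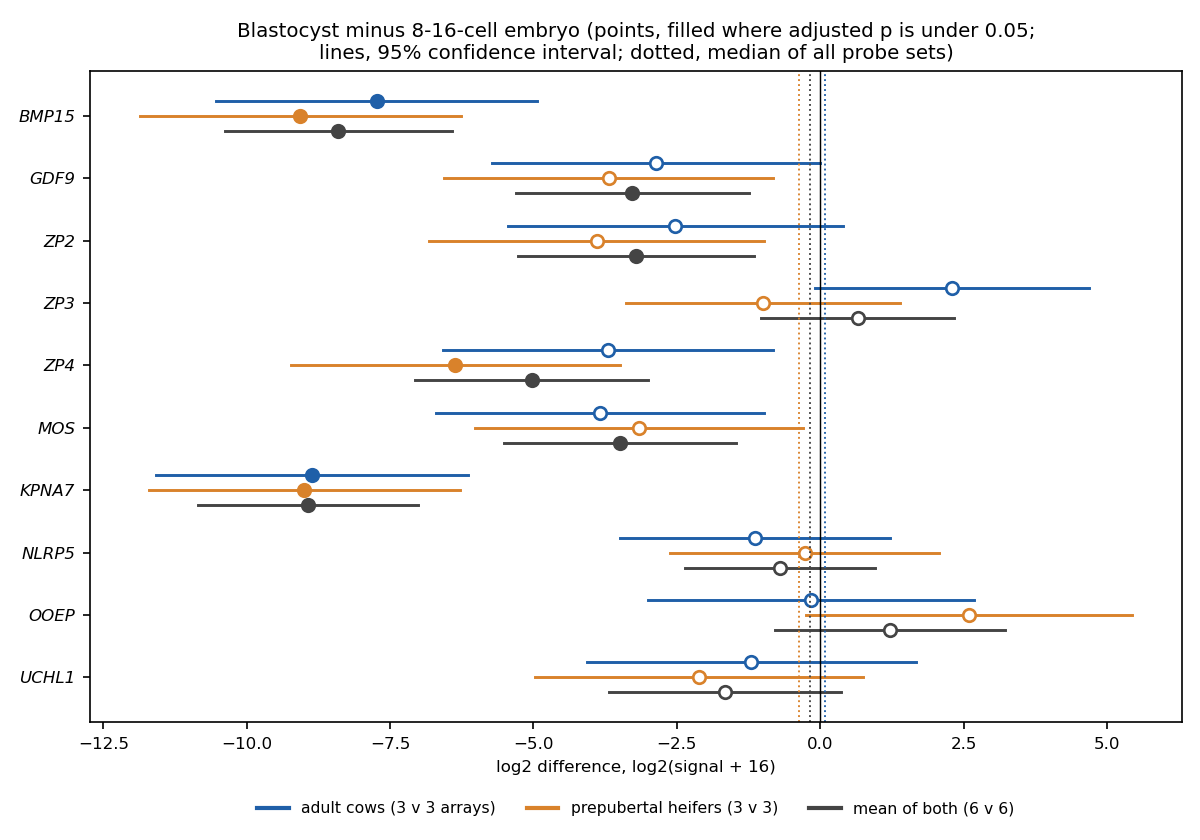
Log2 difference of blastocysts minus 8-16-cell embryos, with its 95% confidence interval, for the 10 genes in adult embryos, in prepubertal embryos and over the mean of both, where filled points passed an adjusted p of 0.05 and dotted lines mark the median of all probe sets. BMP15 and KPNA7 passed in each origin and ZP4 in prepubertal embryos, and GDF9, ZP2 and MOS passed over both origins only.

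The list of other oocyte and maternal-effect genes was mixed. Of 14 measured, 4 fell and none rose, with a median difference of -0.04. MLLT11, known as a fusion partner of MLL in leukaemia, ranged from 9265 to 13287 in adult and 8161 to 37166.5 in prepubertal 8-16-cell embryos, and from 8.47 to 81.8 and 192 to 604 in the blastocysts. Its log2 difference was -6.44 (SE 0.97, adjusted p = 1.34e-07). CNOT6L, a deadenylase that shortens the tails of maternal transcripts, fell by 4.10 on the log2 scale (adjusted p = 0.0053; -3.16 and adjusted p = 0.057 without prepubertal 8-16-cell replicate 3), and UBE2D3, a ubiquitin-conjugating enzyme, fell by 2.30 on the log2 scale (adjusted p = 0.00461; 0.0772 with no variance trend). The other one was CNOT7, the partner deadenylase (-1.96, adjusted p = 0.0225), named here after its value was seen. KIT, the receptor through which granulosa cells signal to the oocyte, differed by 1.56 (adjusted p = 0.252), DNMT1, a DNA methyltransferase, by -1.09 (adjusted p = 0.605) and the chromatin remodeller SMARCA4 by 0.56 (adjusted p = 0.864).

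These drops stood beside opposite moves of genes active in most cells. Of 11 measured housekeeping genes 6 rose from the 8-16-cell stage to the blastocyst and none fell, with a median difference of 2.40: ACTB by 3.37 (adjusted p = 4.74e-08), RPS18 by 3.19 (adjusted p = 1.68e-05), SDHA by 4.26 (adjusted p = 0.00294) and EEF1A1 by 1.46 (adjusted p = 0.00357; 0.357 with no variance trend). Of 16 markers of blastocyst lineages 10 rose, with a median of 3.75, among them LGALS3, at least 189-fold, and FN1, at least 73.2-fold, both at background on all 8-16-cell arrays, and KRT18, a keratin of the trophectoderm, which was above background on 1 of those 6. Taking the median of all probe sets as 0 moved the 10 genes by 0.17 (log2) over both origins, and quantile normalization left each of their calls and directions in that comparison as it was. The part of the scaling in the differences was not tested further.

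**Figure D3:**
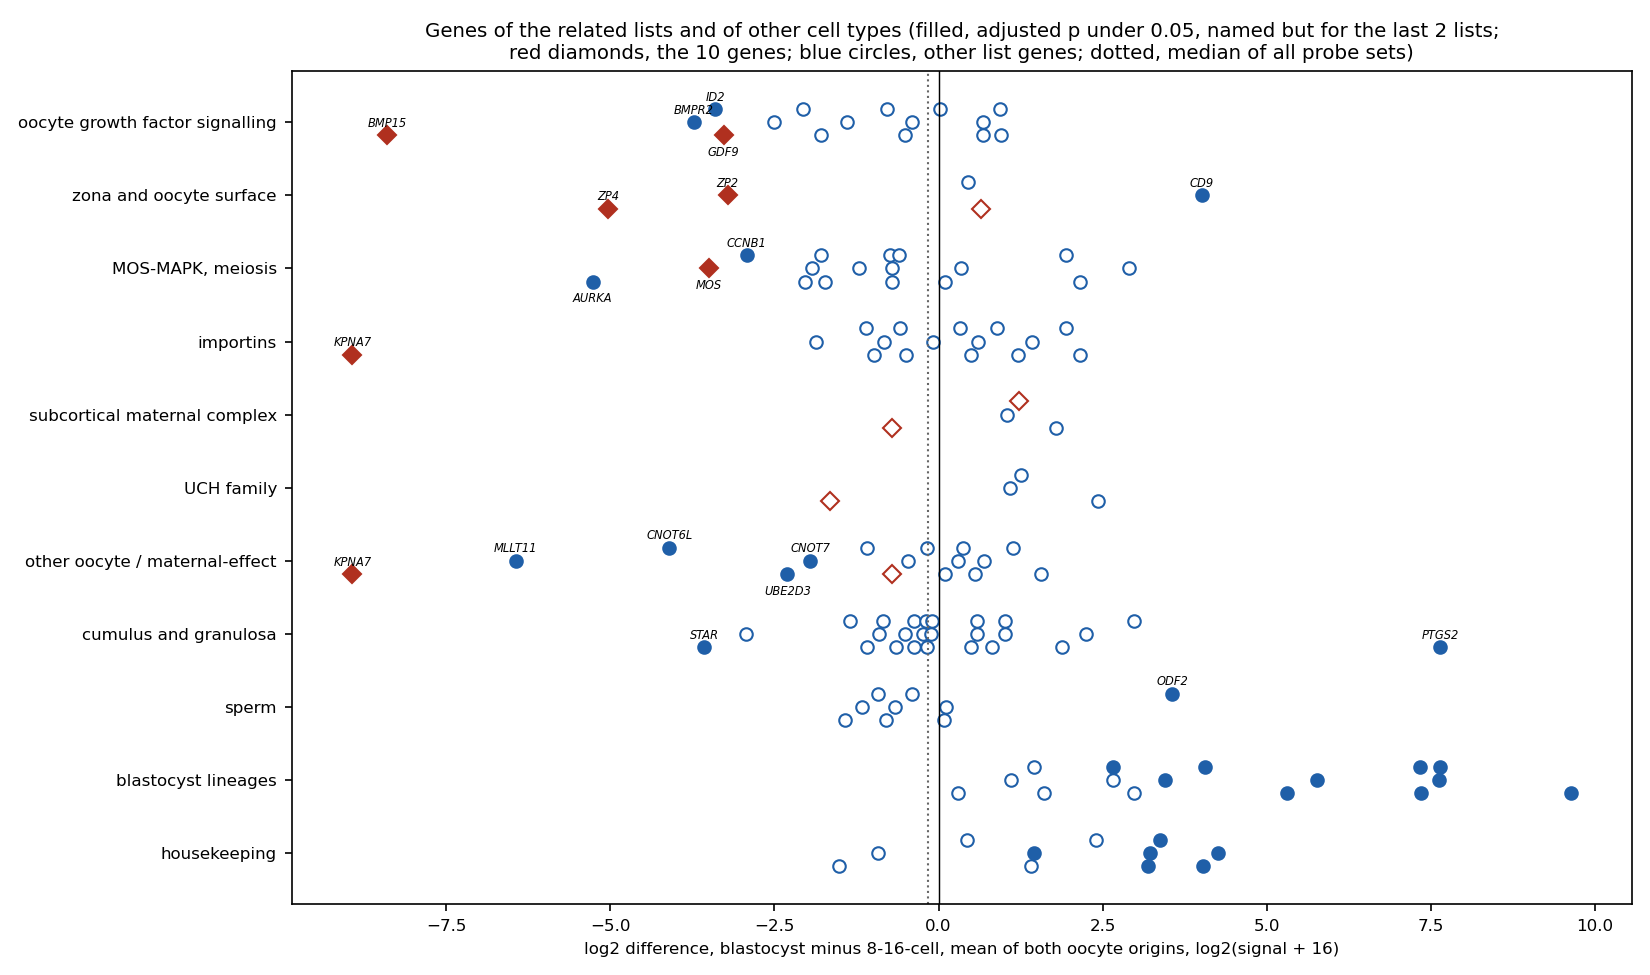
Log2 difference of blastocysts minus 8-16-cell embryos over the mean of both oocyte origins for each measured gene of the related lists and of other cell types, with the 10 genes as red diamonds and other genes as blue circles, filled where the adjusted p was under 0.05. KPNA7 at -8.93 lies apart from the 15 other importins, and all 10 filled blastocyst lineage genes lie to the right of 0.

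The origin of the oocytes, prepubertal heifers against adult cows, was the question the study was designed around, and no gene of the set passed for it. At the 8-16-cell stage 0 of 10 passed and 0 had an unadjusted p under 0.05 (limma; lowest unadjusted p 0.0871), where 0.0208% of probe sets, 5 in all, passed (0.0125% higher and 0.00833% lower in prepubertal embryos) and 2166 had an unadjusted p under 0.05. In blastocysts 0 of 10 passed (lowest unadjusted p 0.0626), where 0 of 24016 probe sets, or 0%, passed and 884 had an unadjusted p under 0.05. The difference between the stages in the effect of origin passed for 0 of 10 and for 0 probe sets, 0%, with 1307 at an unadjusted p under 0.05 (lowest adjusted p of the 10 genes 0.924). With 3 arrays a group the intervals are wide, so these values do not show that the origins were alike.

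At the 8-16-cell stage KPNA7 was the only gene of the set whose origins did not overlap, as 12.7% of all probe sets did not (10.0% higher and 2.67% lower in prepubertal embryos). Its log2 mean was 13.75 ± 1.58 (SD, n = 3) in adult and 16.12 ± 1.61 in prepubertal embryos, a difference of 2.37 with a 95% confidence interval of -0.35 to 5.09 (adjusted p = 0.605). Without prepubertal 8-16-cell replicate 3, the array that stood apart, it was 1.46 (adjusted p = 0.915). The median of all probe sets at that comparison was itself 0.59 higher in prepubertal embryos, and 0.05 higher after quantile normalization. MOS differed by -1.98 (95% confidence interval -4.84 to 0.88, adjusted p = 0.689), and by -0.53 without that array. BMP15 differed by -0.89 (95% confidence interval -3.69 to 1.91), and by -0.20 without it. The value without that array was 0.29 in place of 1.28 for ZP2, 1.25 in place of 0.97 for ZP4 and 1.5 in place of 0.16 for GDF9. UCHL1 went from 0.40 to -0.03, OOEP from -0.06 to 0.49 and NLRP5 from -0.07 to 0.25, so the sign of these 3 rested on 1 array. ZP3 was at background on all 6 arrays of this stage, and its value of 1.04 has no scale.

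In blastocysts OOEP had the largest value, 2.70 higher in the prepubertal group with a 95% confidence interval of -0.15 to 5.55 (adjusted p = 1). KPNA7 was 2.23 higher (95% confidence interval -0.48 to 4.95), ZP3 at -2.26 (-4.65 to 0.12) and BMP15 at -2.23 (-5.03 to 0.57) were lower, each with an adjusted p of 1. The origins did not overlap for these last 3 genes, 1 upward and 2 downward, where 9.82% of all probe sets did not overlap (6.04% higher and 3.78% lower). All 3 were at background on at least 5 of the 6 blastocyst arrays, so their order there has no scale. The BMP15 value is that of its brighter probe set. The dimmer one differed by 0.27 (95% confidence interval -2.63 to 3.16), opposite in sign, and its origins overlapped.

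**Figure D4:**
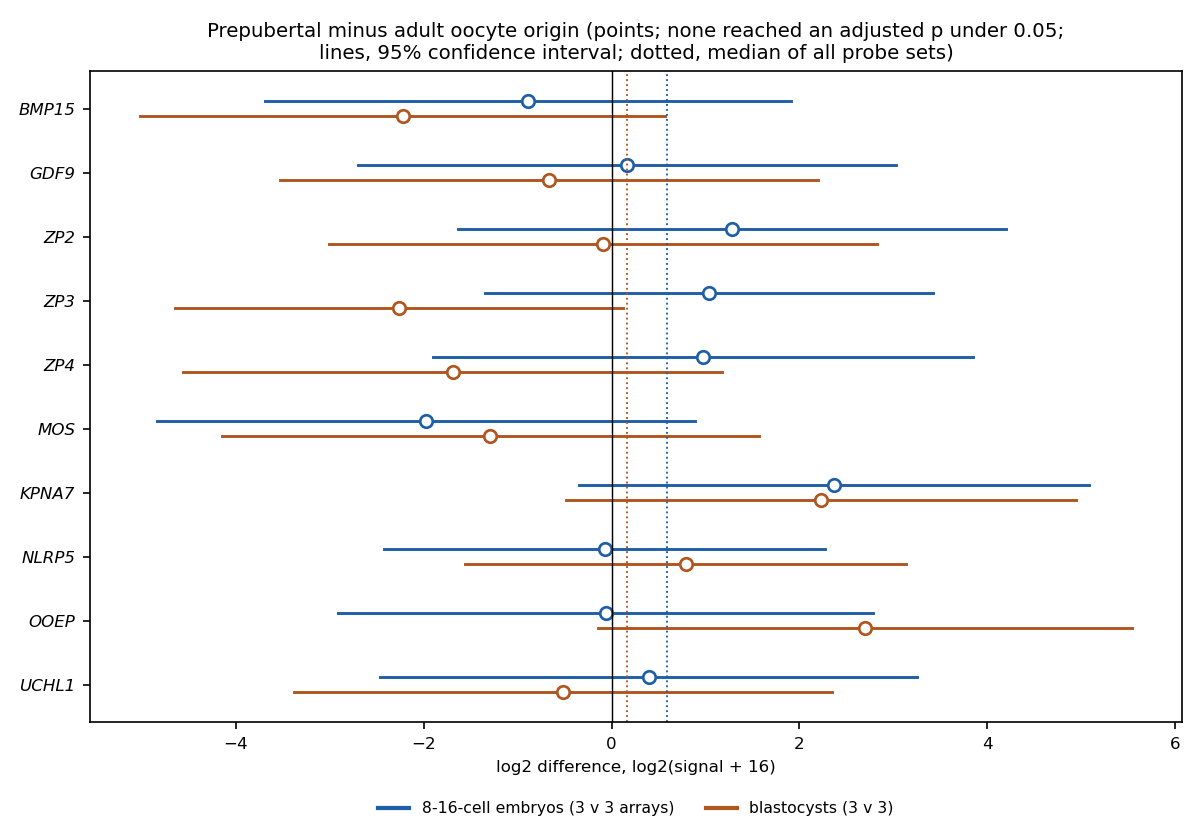
Log2 difference of prepubertal minus adult oocyte origin, with its 95% confidence interval, for the 10 genes in 8-16-cell embryos and in blastocysts, with dotted lines at the median of all probe sets. Every interval spans 0, from KPNA7 at 2.37 and MOS at -1.98 in 8-16-cell embryos to OOEP at 2.70 in blastocysts.

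The genes also differed in how well their pools repeated. The residual SD of log2 signal within groups was 0.83 for the brighter BMP15 probe set, a value that 4.23% of probe sets undercut. It was 0.99 for ZP4, 1.03 for ZP3 and 1.29 for KPNA7, against a median of 1.47 over all probe sets. A small SD is not by itself better repetition. ZP3 was above background on 1 array only, and in prepubertal blastocysts ZP4 and BMP15, all at background, had SDs of 0.22 and 0.27. The residual SD was 1.57 for GDF9, 1.60 for ZP2, 1.64 for NLRP5 and 1.94 for MOS. No array was high or low throughout: adult 8-16-cell replicate 1 was the lowest of its group for 6 of the 10 genes and the highest for 2, and prepubertal blastocyst replicate 3 was the highest for 6 and the lowest for 1.

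Profiles over the 12 arrays were set side by side as a description, since all arrays of a stage share that stage, its pool size and the scaling. Pearson's r among the 6 genes that fell ran from 0.35 (MOS with ZP2) to 0.96 (BMP15 with ZP4) with a median of 0.73, over 15 pairs. These genes were selected by their stage difference on the same arrays, which by itself makes r positive. Over the 45 pairs of all 10 genes the median was 0.28. Among 3271 genes above background on all arrays of at least 1 group, the genes nearest to BMP15 were ZP4, the amino acid transporter SLC1A5 (0.95) and the deubiquitinase USP33 (0.95). Nearest to ZP4 was BMPR2 (0.97), then BMP15 and the motor protein KIF3C (0.95). KPNA7 was nearest to the ubiquitin ligase PELI1 (0.97), YPEL5 (0.97) and ZSCAN31 (0.96). GDF9 was nearest to OSER1 (0.86), DENR (0.86) and RNPC3 (0.85), MOS to CNNM2 (0.92), LMO2 (0.89) and ATF2 (0.88), and ZP2 to NCOR1 (0.92), MADD (0.91) and CCDC115 (0.90). OOEP, which did not share the stage pattern, was nearest to GRTP1 (0.86), BLOC1S2 (0.86) and the ribosomal protein gene RPL13 (0.85).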

How the data were processed

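The deposited file held 1 signal intensity per probe set for each of the 12 arrays, which the authors computed with MAS5, per the submitters' processing notes; the sources used here give no version or settings. After trimming 2% of probe sets from either tail, array means came to 500.2 to 500.3, a scaling to 500. Of 24128 probe sets, 112 controls were left out. Platform annotation, which can be old, named 1 gene for 13292 probe sets, several for 86 and none for 10638, and no member symbol needed updating through RefSeq. Columns of other series numbered 0. No pair of arrays held more than 0.00416% identical values.

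Values were analysed as log2(signal + 16), which understates changes of dim probe sets. The 4 group means were estimated from all arrays together in limma 3.58.1 (lmFit, eBayes with trend = TRUE) in R 4.3.3, and two-sided p-values were adjusted by Benjamini and Hochberg over 24016 probe sets, with calls at 0.05. The fit leaned on probe sets of like level (prior of 195.7 against 8 residual degrees of freedom), so a gene's own spread between pools weighed little. Where the dimmer group was at background on all arrays, "at least" folds compare the brighter group's mean with the dimmer one's after each dim signal was raised to its array's background. For GDF9, MOS and ZP4 an array of the brighter group was itself below background and entered with its own value. Their folds over both origins, and that of ZP4 in prepubertal embryos, are therefore given without "at least". Whether the Bacillus subtilis sequences were added to the samples is not given; if so, the background is too high. With 3 arrays a group, their number limits the precision.

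The members and the 11 gene lists were chosen with earlier results of these data known. Named in the text were all members, up to 4 called genes per list and direction by p (the 2 smallest p where none passed), the 3 highest correlations for each member above background on all arrays of a group, and further genes of the lists and the genomic neighbours, picked for their role or position after their values were seen. Alternatives were another pseudocount, quantile normalization, a filter on low signals, a floor at the highest background, other eBayes settings, array weights, only the arrays compared, the mean of all probe sets of a gene, a replicate block, another background and leaving out each array.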

Additional observations from a re-analysis of the deposited data

How the results depend on the processing

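BMP15 and KPNA7 kept their drop over both origins under every alternative run, with adjusted p of at most 0.000858 and 0.00352, and ZP4 under all but the floor. The floor, which raised all signals to the highest background of any array, by its construction removed most differences of dim genes: members called were 1 in adult, 2 in prepubertal embryos and 2 over both origins, KPNA7 in adult embryos (-3.03, adjusted p = 0.29), ZP4 in prepubertal embryos (-0.48, adjusted p = 1) and ZP4, GDF9, MOS and ZP2 over both origins (adjusted p = 1) were lost, and the probe sets called were 99, 154 and 377 in place of 512, 563 and 1538. It also ended the calls of ID2, STAR, CNOT6L, ODF2, SDHA, EEF1A1 and CD9 over both origins. Array weights gave 889 in adult embryos. For origin at the 8-16-cell stage, 5 probe sets became 3 with a pseudocount of 1 or 64 or array weights, 8 after quantile normalization, 2 with only the arrays compared, and 0 with the low filter, the floor or no variance trend; in blastocysts 0 became 2 with only the arrays compared. The causes of these moves, other than the floor, were not tested. With background at the 75th percentile of the controls (50.7, 63.0 and 142 on the adult blastocyst arrays), 2 members in place of 0 exceeded it on all adult blastocyst arrays. They were ZP2 and ZP3, so their reading as at background there depends on the cutoff. The share of all probe sets above this lower background is not given here, so the count has nothing to be set against.

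Leaving out 1 array gave 253 to 794 probe sets in adult embryos, 272 to 611 in prepubertal embryos, 1203 to 1671 over both origins, 2 to 14 for origin at the 8-16-cell stage, 0 to 0 in blastocysts and 0 to 1 for the difference of these effects. The members called were 2 to 2, 3 to 3 and 3 to 6 for the stage comparisons and 0 to 0 for those of origin. Adult 8-16-cell replicate 2 and adult blastocyst replicate 2 each left 3 over both origins. No called difference reversed.

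With a replicate block the probe sets called were 540, 608 and 1591 for stage and 5, 0 and 0 for origin, and the members called stayed at 2, 3 and 6 and at 0. No pairing by replicate number was seen: same-numbered arrays of different groups deviated together with a correlation of -0.02 to 0.04 over 9807 probe sets, against -0.05 to 0.03 for different numbers. This comparison cannot tell whether pools had animals, sires or culture days in common.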

Other observations

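The nearest measured genes on either side of each member were read in the comparison of stages over both origins. Gene order was that of the RefSeq annotation of assembly ARS-UCD2.0, and up to 11 protein-coding genes lay between neighbour and member. Of 20 such neighbours 4 fell and none rose at an adjusted p under 0.05 (limma), where 2.51% of all probe sets fell. They were NUDT10 next to BMP15 (log2 difference -3.49, SE 1.04, adjusted p = 0.0204), LDAF1 next to ZP2 (-4.26, SE 1.06, adjusted p = 0.00302), MTR near ZP4 (-3.19, SE 1.05, adjusted p = 0.0429) and APBB2 near UCHL1 (-5.19, SE 1.04, adjusted p = 0.000119). NUDT10, MTR and APBB2 had every 8-16-cell array above every blastocyst array. No protein-coding gene lies between NUDT10 or LDAF1 and the member, and MTR and APBB2 each have 1 protein-coding gene between them and the member. The neighbours of KPNA7, ARPC1A (0.48, adjusted p = 0.894) and TRRAP (2.09, adjusted p = 0.3), and of GDF9, UQCRQ (0.88, adjusted p = 0.761) and CSNK1G2 (-0.56, adjusted p = 0.862), did not pass. RPS20, a ribosomal protein gene next to MOS, differed by 2.46 (adjusted p = 0.0653), opposite in sign to MOS. The 20 neighbours were taken by position alone, and those named here that did not pass were picked after their values were seen. Each neighbour was read by its gene's brightest probe set, whereas the 2.51% is over all probe sets, dim ones included. The number of neighbours that fell was not tested.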
